A study of Mus musculus with 24 samples.

Results

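The genes described here code for the proteins of the cytosolic ribosome. They were taken from the gene table by type and name, as protein-coding genes whose symbol begins with Rpl or Rps and a number, without the Rps6k kinases, and with at least 240 counts summed over the 24 libraries. The rule found 84 of 55487 genes, from 90 that fitted the name. They comprise 30 proteins of the small subunit, 43 of the large subunit, 10 paralogues or extra gene copies, and Rps19bp1, a protein that binds Rps19 and is not part of the ribosome. They lie on 20 chromosomes. The smallest summed counts inside the threshold were 265 for Rps23rg1, 623 for Rpl10-ps3 and 630 for Rpl36a-ps1, and the largest outside it was 135 for Rpl3l, the striated muscle paralogue of Rpl3. Rpl39l had 2 counts and Rpl10l had 0, and both are paralogues best known from the testis. Other ribosomal protein genes, among them Rplp0, Rplp1, Rplp2, Rpsa and Fau, lie outside the name rule and are given separately.

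The RNA came from Myc-CaP, a line of mouse prostate tumour cells that the labels describe as overexpressing MYC, and was sequenced in 8 groups of 3 libraries. All cells were treated for 6 days, with drug and medium renewed every 3 days. The Aurora kinase A inhibitor alisertib was given at 500 nM. Docetaxel, a stabiliser of microtubules, was given at 3.75 µM, and the topoisomerase II poison etoposide at 500 nM. PF-06873600, which acts on CDK2 as well as on CDK4 and CDK6, was given at 500 nM, and palbociclib, which acts on the last 2 of these kinases, at 1 µM. The combination T/P was read as 25 nM of the MEK inhibitor trametinib with 1 µM palbociclib, because the protocol names trametinib for no other group. Nutlin, which keeps MDM2 from binding p53, was given at 500 nM, and the control cells received the solvent DMSO. The line, its MYC overexpression and the batch label are common to all groups. Whether the libraries within a group came from separate cultures is not stated, so a p-value here rests on the spread among these 3 libraries, which may be technical.

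A ribosome holds each of its proteins once or a few times, and the subunits are assembled on ribosomal RNA in the nucleolus with the help of many assembly factors. In mammals the mRNAs of ribosomal proteins begin with a C followed by a run of pyrimidines, the 5′ terminal oligopyrimidine (TOP) motif, through which mTORC1 and the protein Larp1 control their translation and stability. MYC is a known activator of ribosomal protein and ribosome assembly genes. Some ribosomal proteins act outside the ribosome, among them Rpl5 and Rpl11, which can bind MDM2.

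The stretches around the annotated start of 9 members are shown because they carry the TOP letters, or lack them, in genes that recur in the results. They were taken from RefSeq promoter records on GRCm38.p6, run 5′ to 3′ on the gene's strand, and hold 60 bases before and 20 bases from the start. Capitals mark a C followed by at least 4 pyrimidines that begins within 15 bases of the start. Where a stretch holds several such runs, only the run that begins nearest the start is marked. Rps6, Rpl18 and Rps26 code for members that fell strongly, Rps27 and Rps27l are a pair of paralogues, and Rpl22l1 fell most after docetaxel. Rpl10 and Rps4x, whose stretches are not shown, also fell strongly and had no such run. Rpl41, Rpl7l1 and Rps19bp1 had no such run in this window. They lie at chr4:86857348-86857427 (minus strand) for Rps6, chr7:45718011-45718090 (plus) for Rpl18, chr10:128626487-128626566 (minus) for Rps26, chr3:90213629-90213708 (minus) for Rps27, chr9:66946026-66946105 (plus) for Rps27l, chr3:28805448-28805527 (plus) for Rpl22l1, chr10:128549149-128549228 (minus) for Rpl41, chr17:46782637-46782716 (minus) for Rpl7l1 and chr15:80264287-80264366 (minus) for Rps19bp1.
Rps6: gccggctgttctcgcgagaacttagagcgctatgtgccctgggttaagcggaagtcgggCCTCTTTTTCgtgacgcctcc
Rpl18: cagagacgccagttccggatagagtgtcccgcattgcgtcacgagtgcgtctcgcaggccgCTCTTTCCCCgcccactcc
Rps26: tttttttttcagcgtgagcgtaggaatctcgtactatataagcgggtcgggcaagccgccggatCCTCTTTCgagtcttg
Rps27: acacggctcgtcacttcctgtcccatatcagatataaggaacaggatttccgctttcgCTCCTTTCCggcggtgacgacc
Rps27l: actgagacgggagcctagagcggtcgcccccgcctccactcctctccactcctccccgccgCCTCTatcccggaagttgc
Rpl22l1: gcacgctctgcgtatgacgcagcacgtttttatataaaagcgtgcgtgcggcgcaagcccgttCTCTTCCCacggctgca
Rpl41: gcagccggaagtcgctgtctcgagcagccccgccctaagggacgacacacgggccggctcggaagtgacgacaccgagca
Rpl7l1: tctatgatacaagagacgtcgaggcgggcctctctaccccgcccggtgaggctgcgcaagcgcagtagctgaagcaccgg
Rps19bp1: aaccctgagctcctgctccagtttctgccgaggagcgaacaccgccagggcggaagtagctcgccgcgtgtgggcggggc

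Of the 84 members, 61 had a promoter record. A C with at least 4 pyrimidines after it began within 15 bases of the start in 41 of them (67.2%), against 43.3% of all 27025 genes with a record. It began at the annotated start itself in 13 of 61 (21.3%), against 3.01% of all genes, a stricter count that was added after the first was seen. In the window of 250 bases before to 50 after the start, on both strands, CCGGAAG, a core that ETS factors bind, was found in 23 members (37.7%), against 9.93% of all genes. GGGCGG was found in 37 (60.7%), against 38.2%, and AAGATGGCG in 4 (6.56%), against 1.64%. TATAAA within 60 bases before the start, also on both strands, was found in Rpl22l1 alone (1.64% of members, against 4.66% of all genes). The TATAAA of Rpl22l1 can be read in lower case in the sequence above. A match is only a match of letters in these windows.

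Docetaxel 1 held 69757257 counts and the other 23 libraries 21260781 to 28318784, and counting error is small for all but the few rare members. Libraries of a group differed by more than counting noise (chi-square per degree of freedom 2.91 to 54.0), so none was counted as a copy. Among prostate epithelial markers Hoxb13 (median 19.3 CPM, a count relative to the library's scaled total) and Krt8 (10.8) were low, and Epcam was 0 in 20 of 24 libraries. The 5 leukocyte markers summed to at most 0.783 CPM in any library and the 3 endothelial markers to at most 2.52 CPM. The 6 fibroblast markers summed to 27.8 to 29.2 CPM after alisertib and 13.5 to 22 CPM in DMSO, most of it Pdgfra, and Lum was 0 in all 24. Of the 3 fibroblast markers that could be tested, 3 were called higher after alisertib and after docetaxel, 2 after etoposide, 1 after PF-06873600 and 0 after palbociclib, T/P and Nutlin, and Pdgfra was called lower after Nutlin. Pecam1, the endothelial marker tested, was called higher after alisertib, docetaxel, etoposide and PF-06873600, and the endothelial sum was 0.644 to 1.46 CPM after alisertib and 1.00 to 2.52 after docetaxel, 0.711 to 1.60 after etoposide and 0.241 to 0.454 after PF-06873600, against 0 to 0.0872 CPM in DMSO. Over the 24 libraries the median was 0.164 CPM for Col1a1, 0 for Dcn and 0.227 for Pecam1. These 3 genes passed the low-count filter through the libraries where they are high, so nothing is read from their higher calls. The part of these markers in the results was not tested. In every group the library numbered 2 had the lowest Neat1, a nuclear noncoding RNA, and in 6 of 8 groups it had the highest share of ribosomal protein counts.

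In DMSO the members ranged widely in level. By TPM (counts per exonic length relative to the library's sum, as deposited), 58 members averaged over 1000 in DMSO, 16 lay between 100 and 1000, and 10 were under 100. The highest members over all libraries were Rpl36, Rps3a1 and Rpl4, at 7798 ± 561, 6065 ± 331 and 5301 ± 265 TPM in DMSO (SD, n = 3). All 3 are core proteins of the ribosome. Exonic length takes in all annotated exons of a gene, 383 bases for Rpl36 and 6270 for Rps15a, so the ranking depends in part on the annotation. Together the 84 genes held 15.3 ± 1.12% of all TPM in DMSO.

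Ribosomal protein genes held a smaller share of counts in 6 of the 7 treatments, with group means between 5.88% and 7.11%, against 8.70 ± 0.724% in DMSO (SD, n = 3). The mean after Nutlin was 8.56 ± 0.634%. The 84 genes held 6.37%, 6.31% and 4.94% of all counts in the alisertib libraries, 6.42%, 7.04% and 6.27% after docetaxel, and 6.50%, 6.64% and 5.64% after etoposide. They held 6.82%, 7.08% and 6.87% after PF-06873600, 6.68%, 6.75% and 6.22% after palbociclib, and 6.17%, 7.85% and 7.32% after T/P. They held 7.83%, 9.03% and 8.81% after Nutlin, against 9.49%, 8.54% and 8.07% in DMSO. All libraries of these 6 treatments lay below all DMSO libraries, and the Nutlin libraries overlapped with them. No test was made on the share. A share is relative to all other RNA, and the amount of RNA per cell was not measured. In bulk RNA, fewer cells of a type and less RNA per cell cannot be told apart.

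**Figure D1:**
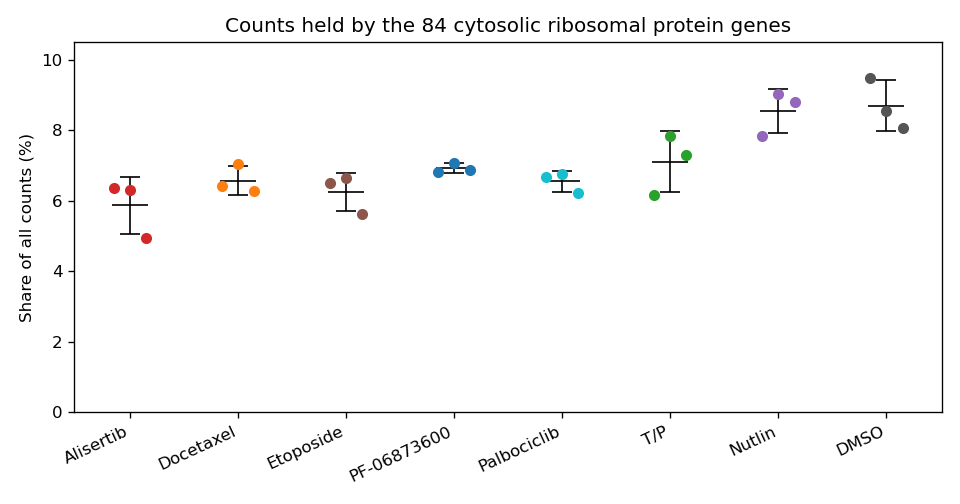
Share of all counts (%, vertical axis) held by the 84 genes in each library (points) by group, with the group mean and SD (black). The alisertib, docetaxel, etoposide, PF-06873600, palbociclib and T/P libraries lie at 4.94% to 7.85%, below the 8.07% to 9.49% of DMSO, and the Nutlin libraries lie at 7.83% to 9.03%.

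Nuclear and mitochondrial RNA also differed between groups. Neat1 averaged 651 ± 323 CPM after alisertib, 831 ± 455 after docetaxel, 600 ± 340 after etoposide, 157 ± 84.2 after PF-06873600, 534 ± 80.5 after palbociclib, 159 ± 80.6 after T/P and 282 ± 206 after Nutlin, against 123 ± 70.0 in DMSO (SD, n = 3). Its means after PF-06873600 and T/P lay within 1 SD of DMSO. Malat1, another nuclear noncoding RNA, averaged 581 ± 96.2 CPM after alisertib, 542 ± 227 after docetaxel, 414 ± 145 after etoposide, 393 ± 61.2 after PF-06873600, 842 ± 128.1 after palbociclib, 573 ± 137 after T/P and 893 ± 525 after Nutlin, against 435 ± 100 in DMSO. Mitochondrially encoded RNA held 1.93% to 2.96% of counts on average in the treated groups, Nutlin among them (2.18%), against 1.30 ± 0.324% in DMSO. Their part in the result was not tested. Without mitochondrial RNA in the total, the members held 6.04 ± 0.838% after alisertib and 8.74 ± 0.544% after Nutlin, against 8.82 ± 0.756% in DMSO.

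Tested gene by gene with edgeR's quasi-likelihood test over all 15527 genes tested, most ribosomal protein mRNAs fell together. A gene was called when its p, adjusted by the Benjamini-Hochberg method, was under 0.05. The 7 comparisons with DMSO share the same 3 DMSO libraries. After alisertib 77 of 84 members were called lower, where 26.1% of all genes tested were, and 1 was called higher (27.8% of all genes). After etoposide 65 were lower (26.9% of all genes) and 1 higher (27.7%), and after docetaxel 64 were lower (22.5%) and 2 higher (26.5%). After palbociclib 60 were lower (17.4%) and none higher (18.5%), after PF-06873600 49 were lower (14.1%) and none higher (17.9%), and after T/P 34 were lower (14.6%) and none higher (15.1%). In the comparisons of PF-06873600, palbociclib and T/P with DMSO no member was higher at an unadjusted p under 0.05 either (22.6%, 23.6% and 19.7% of all genes were), and DESeq2 also called 0 higher. After Nutlin 1 member was lower (11.4%) and none was higher (8.02%). At an unadjusted p under 0.05, 2 members were lower after Nutlin (17.5% of all genes) and 0 higher (13.5%), and DESeq2 called 1 lower and 0 higher.

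The typical change differed between treatments. On the log2 scale the median member was at -0.75 after alisertib, -0.68 after etoposide, -0.57 after docetaxel, -0.48 after palbociclib, -0.40 after PF-06873600, -0.32 after T/P and -0.04 after Nutlin. The median of all genes tested lay between 0.00 and 0.04 in these comparisons. A median of -0.75 corresponds to 59.4% of the DMSO level, and one of -0.32 to 79.9%. Scaled by total counts alone, the members' medians were -0.56 after alisertib, -0.47 after etoposide and -0.37 after docetaxel, while the median of all genes shifted to 0.22, 0.23 and 0.25. Relative to the median of all genes, the alisertib median was -0.78 under both scalings. A change of scaling shifts all genes nearly alike, so this difference could hardly move and is no check of the scaling. Scaled by total counts, 71.7% of all genes called after alisertib were called higher, against 51.5% with TMM, 78.3% against 54.2% after docetaxel, 71.5% against 50.7% after etoposide, 72.0% against 56.0% after PF-06873600 and 65.6% against 51.5% after palbociclib.

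The T/P count rests in part on single libraries. Without T/P 1, which had the lowest share of its group, 19 members were called lower, and without T/P 2, which had the highest, 50 were. For the other 5 treatments with many calls, leaving out any 1 library left between 37 members lower (PF-06873600) and 78 (alisertib). Without all libraries numbered 2, the counts were 79 after alisertib, 71 after docetaxel, 67 after etoposide, 51 after PF-06873600, 58 after palbociclib, 48 after T/P and 1 after Nutlin.

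Both subunits took part. After alisertib 29 of 30 small-subunit genes and 41 of 43 large-subunit genes were lower, with medians of -0.78 and -0.74. After etoposide 24 of 30 and 35 of 43 were lower, with medians of -0.64 and -0.68. After docetaxel these counts were 24 of 30 and 34 of 43, with medians of -0.57 and -0.58. After palbociclib they were 24 of 30 and 29 of 43, after PF-06873600 20 of 30 and 26 of 43, and after T/P 12 of 30 and 18 of 43. Over the 24 libraries, the level of a member followed the median of the other members, with a Pearson correlation over 0.9 for 48 of 84 members and over 0.8 for 71. This is a description across libraries that share a depth and a treatment.

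**Figure D2:**
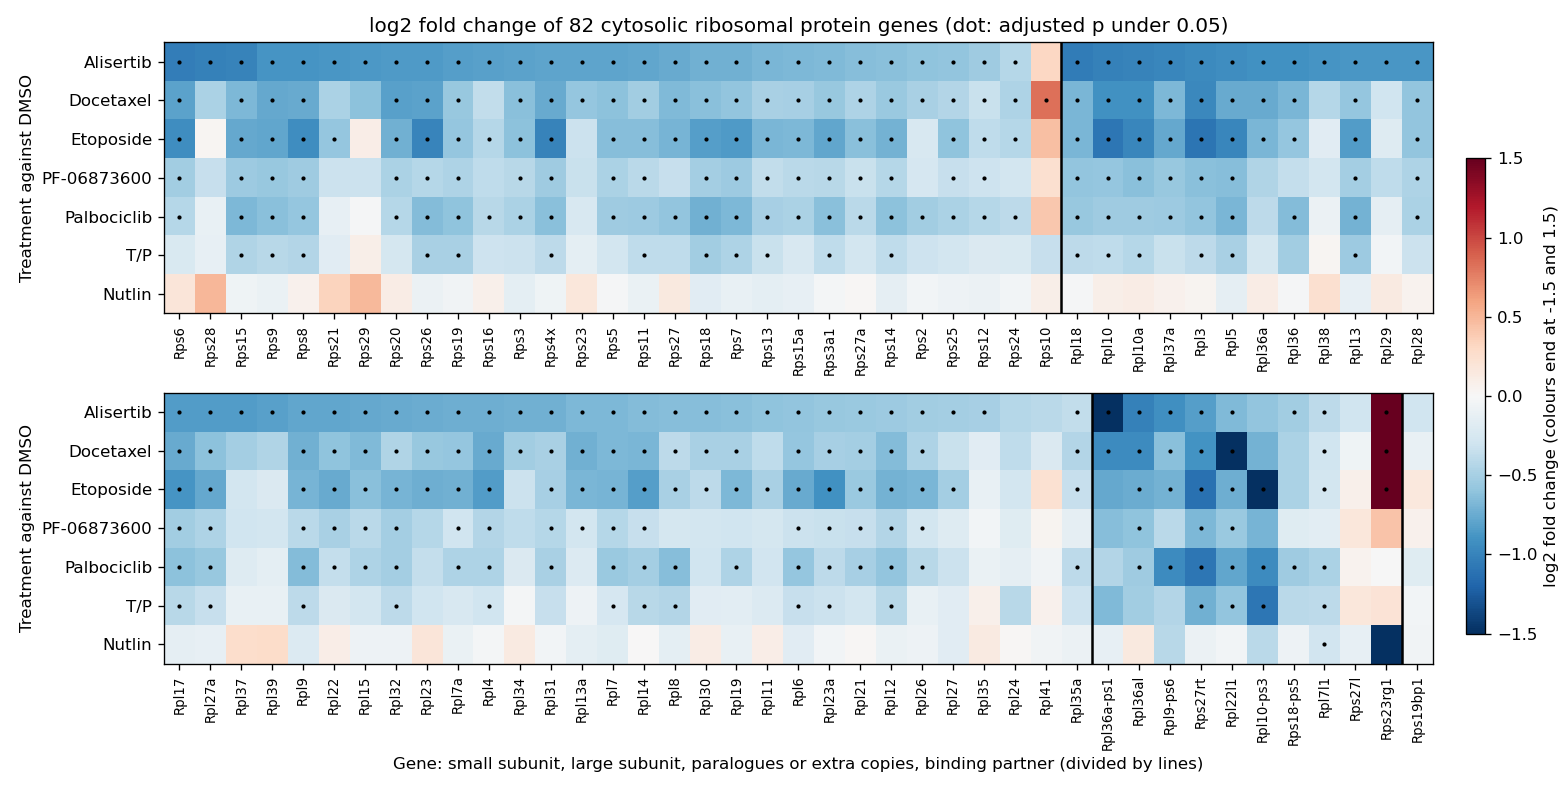
Log2 fold change against DMSO (colour) of 82 members (columns, in blocks of small-subunit genes, large-subunit genes, paralogues or extra copies and Rps19bp1) for each treatment (rows), in an upper and a lower panel, with a dot where the adjusted p was under 0.05. Blue (lower) fills most cells of the first 6 treatments, Nutlin is pale, and Rps23rg1 and Rps10 stand out in red.

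Members differed in how many treatments lowered them. Of 84 members, 32 were called lower in 6 of the 7 treatments, 18 in 5, 7 in 4, 6 in 3, 7 in 2 and 8 in 1. For 31 of the 32, Nutlin was the treatment without a call, and for Rpl7l1, a paralogue of Rpl7 that acts in ribosome assembly, it was PF-06873600. Rpl24, Rpl41, Rps10, Rps19bp1, Rps23rg1 and Rps27l were lower in none, although with the library number as a block Rpl41, Rps19bp1 and Rps27l were lower after alisertib. The 8 called lower once were each called after alisertib, among them Rpl29, Rpl35, Rpl37, Rpl38, Rpl39, Rps28 and Rps29. In a test of any difference over the 8 groups, 78 members passed, where 76.7% of all genes did. Rpl24, Rpl35, Rpl41, Rps18-ps5, Rps19bp1 and Rps27l did not pass.

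Among called members with a mean of at least 10 CPM, Rpl18, Rps6, Rpl10 and Rps28 fell most after alisertib. Rpl18, a large-subunit protein, had 757, 748 and 529 CPM after alisertib, against 1624, 1329 and 1247 CPM in DMSO, and each alisertib library was below each DMSO library. Its log2 fold change was -1.05 ± 0.14 (SE, adjusted p = 1.40e-06, edgeR). Rps6, the small-subunit protein that S6 kinases phosphorylate, had 736, 803 and 468 CPM after alisertib, against 1571, 1338 and 1203 CPM in DMSO. Again the groups did not overlap, and the log2 fold change was -1.04 ± 0.14 (SE, adjusted p = 2.16e-06, edgeR). Alisertib 3 was the lowest library for both genes. Rps28, a small-subunit protein with one of the shortest coding lengths, had 371, 329 and 127 CPM after alisertib, against 793, 437 and 432 CPM in DMSO. Its change of -1.01 ± 0.30 passed with an adjusted p of 0.00742 in edgeR, but not without DMSO 1, where the adjusted p was 0.0782.

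Rpl10 and Rpl3 were low after all 3 of alisertib, docetaxel and etoposide. Rpl10, which joins the large subunit last in the cytoplasm, had 1620, 1749 and 1399 CPM after alisertib, 1621, 1855 and 1671 after docetaxel and 1490, 1631 and 1448 after etoposide, against 3371, 3345 and 2930 CPM in DMSO. It was at about the same level in these 3 groups, far under every DMSO library. The log2 fold changes were -1.02, -0.91 and -1.08, each ± 0.09 (SE), with adjusted p of 5.06e-09, 4.37e-08 and 1.45e-09 in edgeR. Rpl3, a large-subunit protein near the peptidyl transferase centre, had 1017, 1042 and 900 CPM after etoposide and 1029, 1145 and 1068 after docetaxel, against 2286, 2130 and 1897 CPM in DMSO. No treated library reached the DMSO range. Its changes were -1.09 ± 0.10 after etoposide and -0.96 ± 0.10 after docetaxel (SE, adjusted p = 1.90e-09 and 2.78e-08, edgeR).

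Etoposide also lowered Rps4x and Rps26 strongly. Rps4x, the X-linked form of a small-subunit protein, had 1353, 1527 and 1321 CPM after etoposide, against 2846, 3023 and 2531 CPM in DMSO (log2 fold change -1.0 ± 0.09, adjusted p = 3.11e-09, edgeR). Rps26, which lies at the mRNA exit channel, had 805, 871 and 732 CPM after etoposide, against 1642, 1701 and 1426 CPM in DMSO (log2 fold change -0.99 ± 0.11, adjusted p = 5.82e-08, edgeR). In both cases the highest etoposide library was below the lowest DMSO library. Docetaxel lowered Rpl10a, a large-subunit protein, to 709, 785 and 675 CPM, against 1486, 1316 and 1268 CPM in DMSO, again without overlap (log2 fold change -0.91 ± 0.09, adjusted p = 4.42e-08, edgeR).

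Among the CDK inhibitor groups, the largest falls were smaller and partly in other members. The members Rpl5, Rps18 and Rpl13, given here, were also called lower after alisertib, docetaxel and etoposide. After PF-06873600, Rpl5, which binds 5S ribosomal RNA together with Rpl11, had 1488, 1604 and 1505 CPM, against 2553, 2422 and 2157 CPM in DMSO, a change of -0.63 ± 0.11 (SE, adjusted p = 9.42e-05, edgeR). Rpl10a, Rpl3 and Rpl18 came next among members with a mean of at least 10 CPM, at -0.63, -0.62 and -0.59. After palbociclib, Rps18, at the head of the small subunit, had 683, 685 and 636 CPM, against 1047, 1156 and 1089 CPM in DMSO, a change of -0.72 ± 0.11 (SE, adjusted p = 1.65e-05, edgeR). None of these treated libraries overlapped with DMSO. Copies named after Rps18 held 8.04% of the counts of gene and copies together. Of their 44167 counts, 43186 belong to Rps18-ps5, which is annotated as protein-coding and is itself a member. Rpl13, a large-subunit protein, was at -0.71 ± 0.13 after palbociclib. After T/P these genes were again called lower, at -0.53 for Rps18 and -0.54 for Rpl13. T/P holds palbociclib at the same dose.

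**Figure D3:**
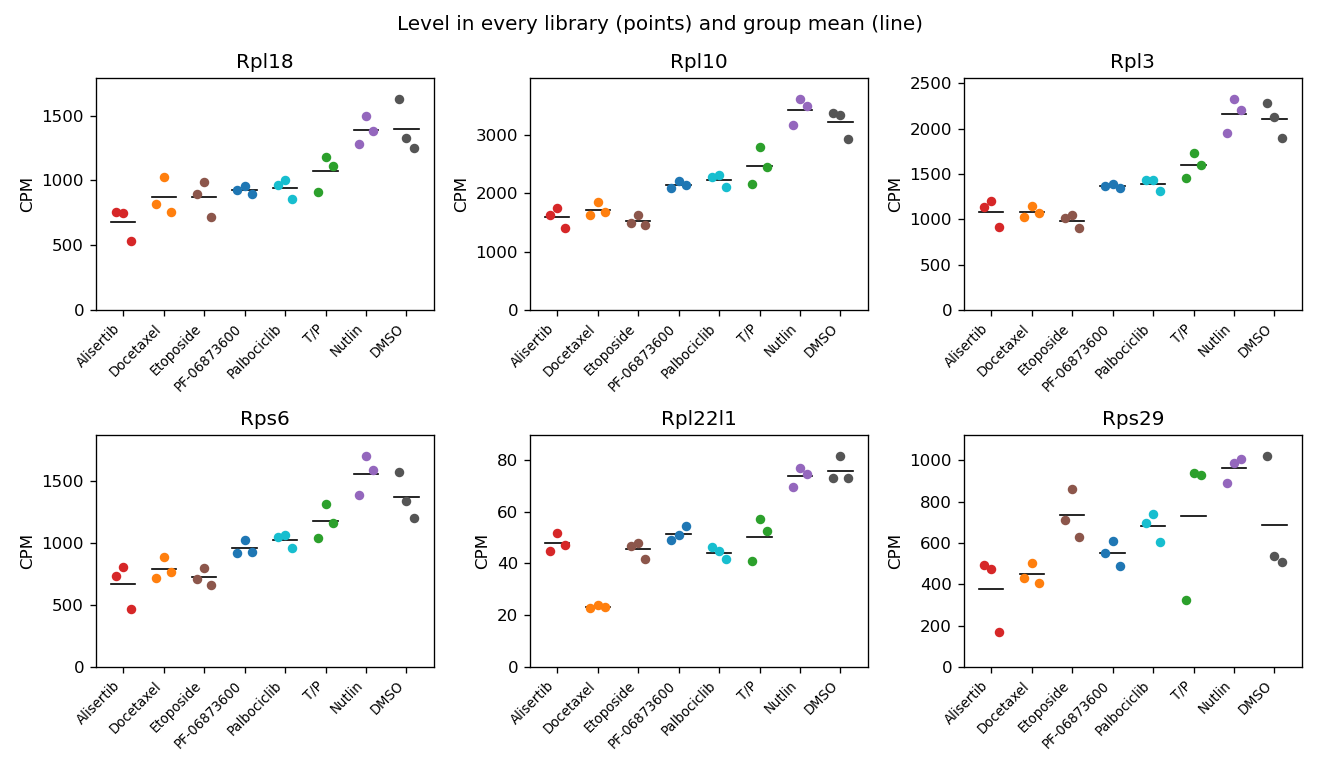
Level in CPM (vertical axis, from 0) of Rpl18, Rpl10, Rpl3, Rps6, Rpl22l1 and Rps29 in each library (points) by group, with the group mean (line). Rpl22l1 is lowest after docetaxel, at 22.8 to 23.9 CPM, and Rps29 spreads widely within alisertib, T/P and DMSO.

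Several members are known from disorders of ribosome assembly or from the binding of MDM2. Rps19, the gene most often mutated in human Diamond-Blackfan anaemia, was lower in 6 treatments, with -0.82 ± 0.15 after alisertib and -0.48 ± 0.15 after T/P (SE, adjusted p = 9.69e-05 and 0.0186, edgeR). The T/P call did not hold without DMSO 1 (adjusted p = 0.0621) or without T/P 1 (0.0995), and that after PF-06873600 (-0.47) did not hold without DMSO 1 (0.0585) or PF-06873600 3 (0.0634). Rps14, whose loss is linked to human 5q- syndrome, fell by 0.71 after etoposide and 0.38 after T/P. Without DMSO 2 or T/P 1, its adjusted p after T/P was 0.0503 or 0.061. Rps7, Rpl5, Rpl11 and Rpl26 can act on MDM2 or p53. Rps7 and Rpl5 were called lower in 6 treatments, Rpl26 in 5 and Rpl11 in 2. The call of Rpl26 after PF-06873600 did not hold without DMSO 1 (adjusted p = 0.0613) or PF-06873600 3 (0.0859), nor that of Rpl11 after etoposide without DMSO 1 (0.10) or Etoposide 3 (0.0747). After Nutlin none of these 4 was called (-0.11 ± 0.10, -0.13 ± 0.11, 0.10 ± 0.16 and -0.07 ± 0.10 for Rps7, Rpl5, Rpl11 and Rpl26). Named pseudogenes held 16.1% of the counts of Rps7 and its copies.

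The paralogues are given beside their canonical partners, and no difference between a pair was tested. Rpl22l1, which can take the place of Rpl22, had 22.8, 23.9 and 23.2 CPM after docetaxel, against 73, 81.3 and 72.9 CPM in DMSO. Docetaxel libraries differed from each other by far less than from DMSO. The change was -1.70 ± 0.09 (SE, adjusted p = 1.48e-12, edgeR), and it was lower in 6 treatments in all. Rpl22 had 457, 511 and 461 CPM after docetaxel, against 792, 700 and 679 CPM in DMSO, a change of -0.60 ± 0.12 (SE, adjusted p = 0.000269, edgeR). After palbociclib and T/P, Rpl22l1 was again the largest fall among called members with a mean of at least 10 CPM, at -0.78 ± 0.09 and -0.60 ± 0.09 (adjusted p = 6.61e-07 and 2.34e-05, edgeR).

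Rps27l, a paralogue of Rps27 that p53 is known to induce in human cells, was called in no treatment without the library number as a block. With the block, fitted over all 24 libraries, it was lower after alisertib (adjusted p = 0.0332 in edgeR), where the numbers were taken to pair libraries. It had 75.4, 111 and 103 CPM after Nutlin, against 102, 111 and 101 CPM in DMSO, and the groups overlapped (log2 fold change -0.12 ± 0.18, adjusted p = 0.697, edgeR). Rps27 itself had 722, 730 and 318 CPM after alisertib and 611, 659 and 577 after etoposide, against 1079, 972 and 941 CPM in DMSO. It was called after alisertib (-0.76 ± 0.21, adjusted p = 0.00419), docetaxel, etoposide and palbociclib, in edgeR. With scaling by total counts it was not called after docetaxel (adjusted p = 0.0546). The palbociclib call (adjusted p = 0.0325) did not hold without DMSO 1 (0.076), Palbociclib 1 (0.0592) or Palbociclib 3 (0.105). Rps27l was at -0.30 ± 0.18 after alisertib (adjusted p = 0.157) and at 0.07 ± 0.18 after etoposide (0.754), both in edgeR.

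Rpl36al, a near copy of Rpl36a, was at 3.07, 2.46 and 2.37 CPM after alisertib, against 5.49, 4.10 and 6.34 CPM in DMSO (log2 fold change -1.01 ± 0.21, adjusted p = 0.000286, edgeR). Rpl36a was at 478, 493 and 252 CPM after alisertib, against 921, 703 and 673 CPM in DMSO (-0.91 ± 0.19, adjusted p = 0.000246, edgeR). Both fell without overlap. The counting of reads shared by such near-identical copies is not given in the sources used here, so these values are uncertain. Rpl7l1 was at 84.6, 83.9 and 77.9 CPM after palbociclib, against 114, 127 and 103 CPM in DMSO (-0.48 ± 0.09, adjusted p = 0.000273, edgeR), while Rpl7 was at 1225, 1229 and 1178 CPM, against 1883, 1871 and 1577 CPM (-0.55 ± 0.09). Rpl7l1 was the 1 member called lower after Nutlin, with 86.3, 105 and 88.6 CPM, against the same DMSO values (-0.29 ± 0.09, adjusted p = 0.0258, edgeR). These groups overlapped, and the call was lost without DMSO 1 (adjusted p = 0.0584), DMSO 2 (0.179), Nutlin 1 (0.153) or Nutlin 3 (0.114). After docetaxel and etoposide the calls of Rpl7l1 (-0.30 and -0.27) were also lost with scaling by total counts (adjusted p = 0.261 and 0.459), and after etoposide without DMSO 2 (0.0928) or Etoposide 1 (0.081).

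Rps23rg1 and Rps10 were the members called higher against DMSO, and both are singled out here for their values. Rps23rg1, a retroposed copy of Rps23 that produces a different protein, had 1.12, 1.25 and 1.31 CPM after alisertib, 0.418, 0.346 and 0.365 after docetaxel and 0.724, 0.918 and 0.960 after etoposide, against 0, 0.207 and 0.159 CPM in DMSO. These are few counts, and 14.3% of its exonic length overlaps Rps23-ps2 on the other strand. It reached the summed count of 240 and passed the low-count filter through the groups where it is high, so it had to differ between groups. The 1 higher call after alisertib, the 1 after etoposide and 1 of the 2 after docetaxel are this gene, and nothing is read from them. Rps10, a small-subunit protein, had 8.31, 6.81 and 9.57 CPM after docetaxel, against 4.45, 3.77 and 5.66 CPM in DMSO (0.83 ± 0.24, adjusted p = 0.00595, edgeR). With the library number as a block, Rps10 was called after etoposide too (adjusted p = 0.0476 in edgeR). Of the exonic length of Rps10, 28.7% overlaps Gm15420 or RPS10-NUDT3, and 20.6% does so on the same strand. Named pseudogenes held 53.6% of the counts of Rps10 and its copies, and the level of Rps10 was far under that of other small-subunit genes. How many of its reads were counted elsewhere cannot be told from the counts. The same holds for Rpl34 (51.8%) and Rps2 (45.8%). Rpl24, at 3.27 to 4.36 CPM in DMSO, shares 47.0% of its exonic length with Gm28037 on the same strand. In each library, pseudogenes named after ribosomal proteins held 1.69% to 2.32% as many counts as the members.

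The members with the shortest coding lengths behaved less evenly than the others. Coding length is the longest annotated for a gene, and the length of the mRNA was not measured. Of the 73 canonical members, 9 have a coding length under 300 bases, a limit set after the values were seen. Their SD within groups was 0.324 on the log2 scale at the median, against 0.166 for the 64 longer genes. After alisertib 8 of the 9 were lower, with a median of -0.86, and 62 of the 64 longer ones, with a median of -0.73. After etoposide 3 of the 9 were lower, with a median of -0.22, and 56 of 64, with a median of -0.68. After palbociclib 2 of 9 and 51 of 64 were lower, with medians of -0.13 and -0.49, and after T/P 0 of 9 and 30 of 64, with medians of -0.11 and -0.32. After docetaxel 2 of 9 and 56 of 64 were lower, with medians of -0.47 and -0.58, and after PF-06873600 1 of 9 and 45 of 64, with medians of -0.32 and -0.41. Across the 73 genes, which share the same libraries, the Spearman correlation of log2 fold change with coding length was -0.52 after etoposide, -0.50 after palbociclib, -0.45 after T/P, -0.44 after Nutlin, -0.38 after docetaxel, -0.35 after PF-06873600 and -0.03 after alisertib. Genes are not replicates, and no test was made.

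Rps29 shows the spread. This small-subunit protein is coded by 168 bases, and it had 492, 476 and 168 CPM after alisertib, 711, 863 and 630 after etoposide and 323, 938 and 927 after T/P, against 1019, 535 and 509 CPM in DMSO. Alisertib 3 and T/P 1 stood low and DMSO 1 stood high. Its fall after alisertib (-0.86 ± 0.33, adjusted p = 0.0321, edgeR) was not called without DMSO 1 (adjusted p = 0.261) or without Alisertib 3 (0.177), nor with scaling by total counts (0.0788). Rpl38, at 210 coding bases, fell after alisertib (-0.89 ± 0.28, adjusted p = 0.0104, edgeR) but not without DMSO 1 (0.0939) or Alisertib 3 (0.0645). Rpl39 had 432, 450 and 195 CPM after alisertib, against 777, 578 and 538 CPM in DMSO, without overlap (-0.81 ± 0.22, adjusted p = 0.0029, edgeR). Rpl41, the shortest at 138 coding bases, had 869, 881 and 448 CPM after alisertib, against 1092, 902 and 906 CPM in DMSO, without overlap (-0.40 ± 0.22, adjusted p = 0.133, edgeR). The library numbers were taken to pair samples in the alisertib comparison, from correlations of 0.208 to 0.325. With the number as a block over all 24 libraries, Rpl41 (adjusted p = 0.0414, edgeR) and Rps19bp1 (0.0181) were called lower after alisertib. Whether RNA quality or library preparation had a part in this spread was not tested.

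**Figure D4:**
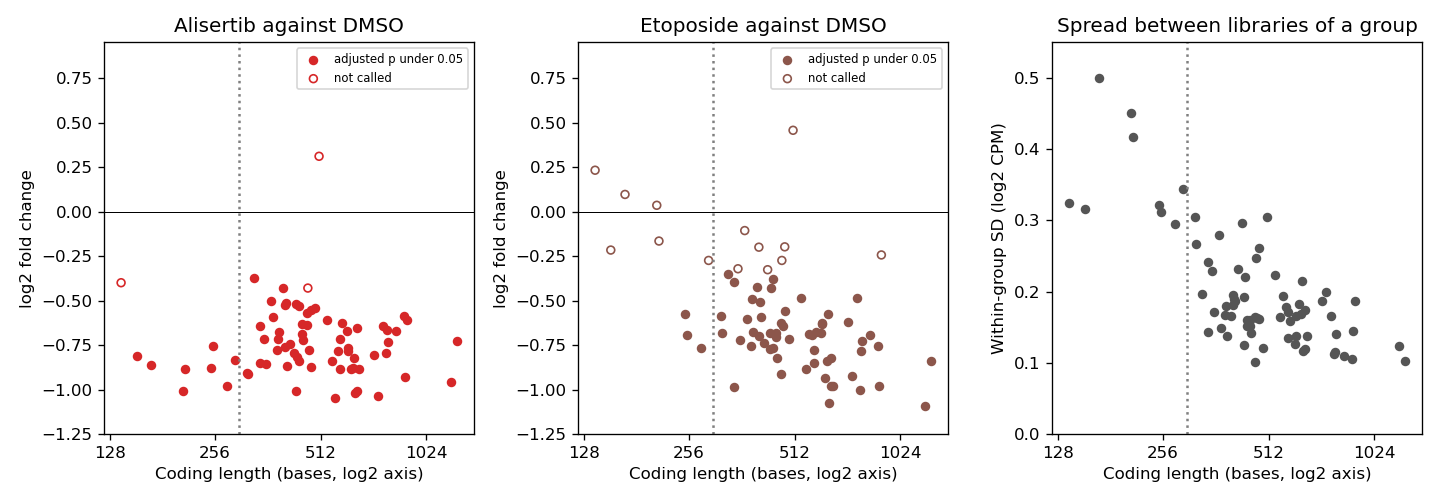
Log2 fold change against coding length (bases, log2 axis) of the 73 canonical members after alisertib (left) and etoposide (middle), with called members filled, and their within-group SD of log2 CPM (right), with a dotted line at 300 bases. Of the 9 genes under 300 bases, 3 were called lower after etoposide and 8 after alisertib, and their median within-group SD is 0.324, against 0.166 for longer genes.

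Members with and without the TOP letters near the start had close medians. Among the 61 members with a promoter record, the 41 with the pyrimidine run near the start had a median of -0.72 after alisertib and the 20 without it -0.76. After docetaxel the medians were -0.58 and -0.57, and after etoposide -0.68 and -0.69. For CCGGAAG the medians after docetaxel were -0.48 with it and -0.61 without it, and after etoposide -0.58 and -0.69. These are descriptions with no test. Letters near an annotated start do not show whether the mRNA itself begins with the TOP motif, so nothing is read about the motif from these medians.

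Other genes of translation moved in part with the ribosomal proteins. Of all genes tested, 26.1% were lower and 27.8% higher after alisertib, 22.5% and 26.5% after docetaxel, 26.9% and 27.7% after etoposide, 14.1% and 17.9% after PF-06873600, 17.4% and 18.5% after palbociclib, 14.6% and 15.1% after T/P and 11.4% and 8.02% after Nutlin, and the counts of each list below are to be read against these shares. Of the 6 ribosomal proteins outside the name rule, 4 were lower after alisertib, 4 after docetaxel, 2 after etoposide, 3 after PF-06873600, 5 after palbociclib, 1 after T/P and 1 after Nutlin, and 0 were called higher in any. Calls of Fau after PF-06873600 and palbociclib, of Rplp1 after docetaxel and palbociclib and of Rplp2 after palbociclib did not hold without DMSO 1 (adjusted p from 0.0965 to 0.136). Rpsa, the small-subunit protein also known as the laminin receptor, was lower in each of the 7 treatments, with -0.73 after alisertib and -0.28 after Nutlin (adjusted p = 0.0427, edgeR). The Nutlin call of Rpsa did not hold without DMSO 1 (adjusted p = 0.173), DMSO 2 (0.137), Nutlin 1 (0.259) or Nutlin 3 (0.114). Rplp0, of the stalk of the large subunit, was at -0.59 after alisertib and -0.53 after etoposide, both called. Rplp1 and Rplp2, its partners in the stalk, were at -0.33 (adjusted p = 0.0535) and -0.68 after alisertib in edgeR, and Rplp1 was called there with the block (0.00981). Fau, which codes for Rps30 joined to a ubiquitin-like protein, was at -0.88 after alisertib.

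The list of 21 translation factors and related genes with TOP mRNAs resembled the ribosomal proteins in its medians. It had 17 lower after alisertib (median -0.65), 18 after docetaxel (-0.54), 19 after etoposide (-0.67), 13 after PF-06873600 (-0.42), 17 after palbociclib (-0.40), 11 after T/P (-0.24) and 1 after Nutlin (-0.03), and 0 higher. Eef1a1, which brings aminoacyl-tRNA to the ribosome, was at -1.19 after etoposide and -0.82 after alisertib. Eef2, the translocation factor, was at -1.14 and -0.77, and Rack1, a scaffold on the small subunit, at -1.05 and -0.80. Pabpc1, the poly(A)-binding protein, was called lower after etoposide (-0.32) and in no other treatment.

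Ribosome assembly genes known as MYC targets were mixed. Of 38, 17 were lower and 4 higher after alisertib (median -0.19), 13 and 4 after docetaxel (-0.08), 12 and 9 after etoposide (-0.03), 14 and 3 after palbociclib (-0.09), 5 and 5 after PF-06873600 (-0.01), 5 and 3 after T/P (-0.08) and 3 and 1 after Nutlin (-0.06). The lower counts after etoposide, PF-06873600 and T/P were near the shares of all genes. The direction of the list depends on the scaling. With total counts, 8 were lower and 13 higher after alisertib (median 0.01) and 5 lower and 21 higher after etoposide (median 0.19). Nob1, which cuts the precursor of 18S RNA, was at -1.03 after alisertib and -0.91 after etoposide, and Rrp12, which acts in the export of subunits, was at 0.25 and 0.37, all called. Of 77 mitochondrial ribosomal proteins tested, 38 were lower and 1 higher after alisertib (median -0.25), 18 and 1 after docetaxel (-0.11), 17 and 6 after etoposide (-0.06), 7 and 5 after PF-06873600 (0.02), 25 and 0 after palbociclib (-0.19), 6 and 4 after T/P (-0.04) and 8 and 0 after Nutlin (-0.13). With total counts the alisertib counts were 15 and 9 (-0.06) and the etoposide counts 8 and 28 (0.14). Of 5 chaperones of ribosomal proteins tested of 6 listed, 3 were lower after alisertib, 4 after palbociclib, 2 after T/P, 1 each after docetaxel, etoposide and Nutlin and 0 after PF-06873600, numbers too small to set against the shares of all genes.

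Of 17 regulators of ribosomal protein synthesis, such as mTORC1 components and MYC partners, 5 were lower and 2 higher after alisertib, 3 and 2 after docetaxel, 8 and 3 after etoposide, 2 and 2 after PF-06873600, 2 and 5 after palbociclib, 3 and 3 after T/P and 0 and 3 after Nutlin. The lower counts after alisertib, docetaxel, PF-06873600 and T/P were near the shares of all genes. Myc was called in none of the 7, with -0.17 after alisertib, -0.02 after docetaxel and -0.01 after etoposide. The counts do not tell the transgene from the mouse gene. Larp1, which binds TOP mRNAs, was called higher after palbociclib at 0.37 and after alisertib at 0.19, and the alisertib call did not hold without DMSO 1 (adjusted p = 0.057) or the libraries numbered 2 (0.101), in edgeR. Eif4ebp1, a repressor of cap-dependent translation under mTORC1, was called higher after etoposide, at 0.45, and in no other treatment against DMSO. Eif4ebp2 was at -0.71 after etoposide and at 0.28 after Nutlin, both called.

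**Figure D5:**
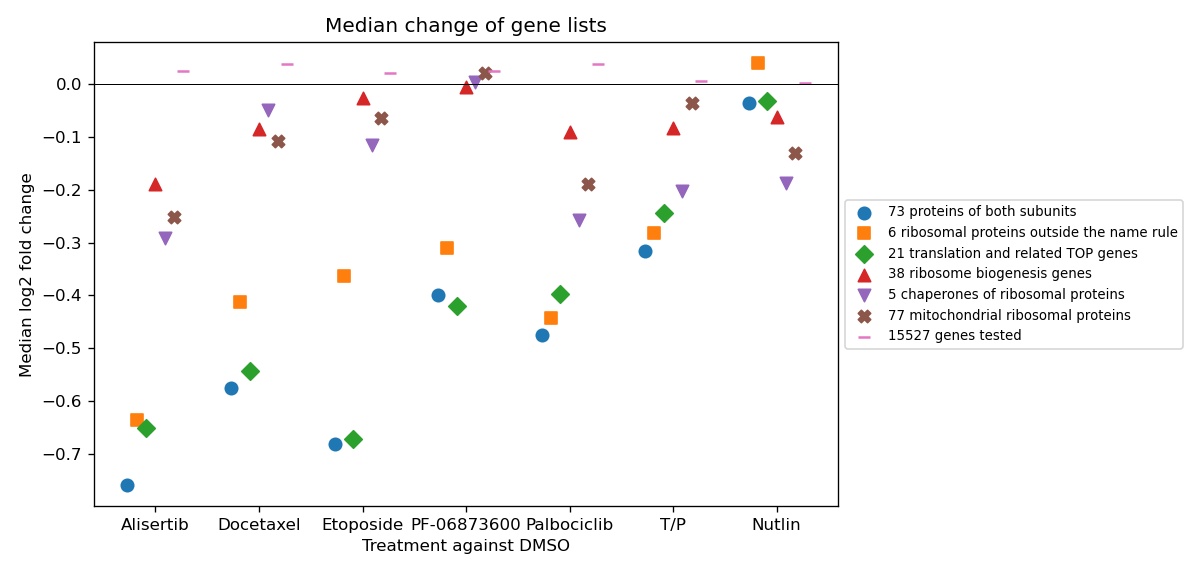
Median log2 fold change against DMSO (vertical axis) of the 73 proteins of both subunits, 5 other gene lists and all 15527 genes tested, by treatment. The ribosomal proteins of both subunits, the 6 outside the name rule and the 21 TOP genes lie below the other lists in the first 6 treatments, and all genes tested lie between 0.00 and 0.04.

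Few ribosomal protein genes were called between treatments. Cells with T/P, which adds trametinib to palbociclib, had 0 members called higher and 0 lower against palbociclib, where 1.64% and 2.47% of all genes were called. The median member was 0.16 higher on the log2 scale, and 78 of 84 lay above 0 (49.4% of all genes did). At an unadjusted p under 0.05, 9 were higher and 1 lower (9.79% and 11.4% of all genes), and DESeq2 called Rpl7 and Rpl26 higher and Rps10 lower. Rpl7 was at 1438, 1637 and 1387 CPM after T/P, against 1225, 1229 and 1178 CPM after palbociclib, without overlap (0.30 ± 0.09, adjusted p = 0.0601, edgeR). Without T/P 1, 1 member was called higher and the median was 0.28, and without T/P 2 none was and the median was 0.07.

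PF-06873600 and palbociclib both inhibit CDK4 and CDK6, and PF-06873600 also inhibits CDK2, but their doses differed (500 nM and 1 µM). Against palbociclib, 3 members were higher after PF-06873600 (14.4% of all genes were) and 0 lower (11.7%). The count depends on the fit: with these 2 groups alone, 23 members were higher and 6 lower, where 2903 and 2932 of 13552 genes were. In the fit over all groups no member was lower at an unadjusted p under 0.05 in edgeR (18% of all genes were), and DESeq2 also called 0 lower. Rpl8, a large-subunit protein, had 1580, 1617 and 1562 CPM after PF-06873600, against 1262, 1245 and 1161 CPM after palbociclib (0.38 ± 0.12, adjusted p = 0.0273, edgeR). Rpl7l1 had 100, 109 and 99.7 CPM, against 84.6, 83.9 and 77.9 CPM (0.33 ± 0.09, adjusted p = 0.011, edgeR). Rpl6 had 2090, 2125 and 2089 CPM, against 1763, 1781 and 1723 CPM (0.26 ± 0.09, adjusted p = 0.0308, edgeR). The groups did not overlap for any of the 3. With any 1 library of the 2 groups left out, the adjusted p of Rpl8 lay between 0.0541 and 0.0987 and that of Rpl6 between 0.0661 and 0.0972, and Rpl7l1 was not called without PF-06873600 2 (0.066) or Palbociclib 3 (0.057). Against palbociclib, 10 of the 38 ribosome assembly genes and 15 of the 77 mitochondrial ribosomal proteins were higher after PF-06873600, and 1 and 0 were lower.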

How the data were processed

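Reads from 24 libraries were processed by the authors with fastp, STAR, featureCounts and DESeq2 on mm10, per the submitters' processing notes, which give no versions here. The strand setting and the treatment of reads with several alignments are not given in the sources used here. The authors deposited raw counts per gene for 55487 genes and TPM for 24621 genes. The deposited TPM equal counts per exonic length within 0.1% for at least 98.2% of genes in each library, and hold genes with at least 10 summed counts.

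Members were chosen by name and the summed count of 240, and the members and gene lists were chosen with earlier results of these data known. All 84 passed the low-count filter (filterByExpr, minimum count 10, minimum total 15), which left 15527 genes with 99.9% of counts. In R 4.3.3, edgeR 4.0.16 fitted the counts with one mean per group, TMM factors and 16 residual degrees of freedom. Tests were two-sided, with Benjamini-Hochberg adjustment over all genes tested. CPM use TMM library sizes. Levels are compared between genes only as TPM. Positions are from GENCODE vM21 on the same build, matched without version numbers for 55141 of 55487 identifiers, since the authors' release differs. The fit was tested on simulated data. Figures were drawn with Python 3.11.15 and matplotlib 3.10.9.

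The genes named are, for each comparison, up to 4 largest rises and 4 largest falls among called members with a mean of at least 10 CPM and no overlap between groups, the 3 members with the highest TPM, a fixed set of paralogues and well-studied members, the 6 ribosomal proteins outside the name rule, and Larp1, Eif4ebp1 and Myc. Other genes named were chosen after their values were seen. A few genes that this rule names are not reported here. Alternatives were RLE factors, total counts, TMM factors without the members, no low-count filter, at least 1 CPM in 3 libraries, a replicate block, the libraries numbered 2 left out, each library left out in turn, fits of the 2 groups alone, DESeq2 1.42.0 and limma 3.58.1 on log2(TPM + 1). Deviations from group means of libraries with the same number correlated at over 0.1 in all 3 pairs (0.117 to 0.352) for alisertib, etoposide and PF-06873600 against DMSO, where the numbers were taken to pair libraries.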

Additional observations from a re-analysis of the deposited data

How the results depend on the processing

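The median of the members against DMSO was negative under all the alternatives for 6 treatments, from -0.85 to -0.51 for alisertib, -0.68 to -0.33 for docetaxel, -0.75 to -0.47 for etoposide, -0.49 to -0.29 for PF-06873600, -0.57 to -0.35 for palbociclib and -0.45 to -0.23 for T/P. For Nutlin it was -0.12 to 0.04. With 1 library left out at a time, members called lower numbered 72 to 78 for alisertib, 59 to 70 for docetaxel, 57 to 66 for etoposide, 37 to 56 for PF-06873600, 46 to 60 for palbociclib, 19 to 50 for T/P and 0 to 1 for Nutlin, and members called higher 1 to 2 for docetaxel, 1 to 2 for etoposide, and 0 to 1 for both T/P and PF-06873600 against palbociclib. The share of counts moved to between 5.63% and 6.34% (alisertib), 6.34% and 6.73% (docetaxel), 6.07% and 6.57% (etoposide), 6.85% and 6.97% (PF-06873600), 6.45% and 6.72% (palbociclib), 6.74% and 7.58% (T/P), 8.32% and 8.92% (Nutlin) and 8.31% and 9.02% (DMSO). As a share of deposited TPM, which divides by length, the members held 10.7%, 12%, 11.2%, 12.5%, 12%, 12.7% and 15.1% in these 7 treatments and 15.3% in DMSO.

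Small counts moved most, and the cause was not tested. Without a low-count filter, 59 members were lower after T/P, 1 was higher after docetaxel, 3 after etoposide and 5 after Nutlin, 5 were higher and 1 lower for T/P against palbociclib, and 8 higher and 3 lower for PF-06873600 against palbociclib. With total counts, 3 were higher after etoposide, 2 lower after Nutlin, 1 higher for T/P and 5 higher for PF-06873600 against palbociclib. In fits of the 2 groups alone, 1 was higher after docetaxel, 0 lower after Nutlin, 2 higher and 1 lower for T/P against palbociclib, and 23 higher and 6 lower for PF-06873600 against palbociclib. DESeq2 called 2 higher and 1 lower for T/P against palbociclib, and the filter of 1 CPM called 1 higher. With limma on log2(TPM + 1), 2 were higher after etoposide and 3 lower after Nutlin. Without the libraries numbered 2, 2 were higher after etoposide.

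The replicate block was fitted over all 24 libraries. Where the numbers were taken to pair libraries, it gave 80 members lower after alisertib, 67 lower and 2 higher after etoposide and 58 lower after PF-06873600. Although the library numbered 2 had the lowest Neat1 in every group, the numbers were taken to pair libraries in these comparisons only. In the other 6 comparisons, not every pair correlated at over 0.1 (correlations from -0.02 to 0.40). There the block gave 74 lower after docetaxel, 63 after palbociclib, 51 after T/P and 2 after Nutlin, 10 higher and 1 lower for T/P against palbociclib, and 8 higher for PF-06873600 against palbociclib. The correlation check found every library closest to its own number in 4 of the 9 comparisons. Among the named genes' tests, 6833 alternative values left the call as it was, 198 added a call and 162 lost one, of which 30 and 107 came from leaving out single libraries. None reversed a called direction.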
